A study of Mus musculus and Homo sapiens with 8 samples.

Results

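The p53 mutant K24R carries arginine in place of lysine at residue 24 and was compared with wild-type p53 in H1299 cells. H1299, derived from a human lung cancer, has no p53 of its own, so the p53 compared here came from the transfected DNA. The comparison rests on 2 of the 8 arrays of the series, 1 of RNA from H1299 transfected with p53 WT and 1 from H1299 transfected with p53 K24R. A further H1299 array, transfected with vector control, is printed beside them as the level without p53. The other arrays of the series hold mouse thymus and are not used here. Per the labels the cells grew in DMEM with high glucose and RNA was extracted with Trizol. The treatment text of these samples speaks of irradiated mice only, and neither the time after transfection nor the amount of DNA is given. The members are the genes measured on these 2 arrays, 11997 of 34694 genes in the human table. A gene entered if a probe had a detection p under 0.01, against the negative controls of the array, on p53 WT or on K24R, and the probe with the highest mean signal stands for it. That took in 14825 of 47323 probes, and the rule uses no difference between the arrays. There was 1 array per group and so no test, and no p-value is given. Each difference is that of 2 RNA samples, and its error is the standard error over the beads that carry the probe (bead SE), which covers the reading of the array and not the variation between cultures. Where a gene was above background on 1 of the 2 arrays only, its fold is written as at least so many times, with the other array set to its own reading of the gene or to the lowest log2 signal called above background there, whichever is higher.

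p53 is a transcription factor that binds DNA as a tetramer and is held low by MDM2, a ubiquitin ligase that is itself a p53 target. When active, it switches on genes of cell cycle arrest, apoptosis, DNA repair and metabolism, and it lowers many cell cycle genes indirectly, through the CDK inhibitor p21 and the DREAM repressor complex. The mutated lysine lies in the amino-terminal part of p53, which contacts the transcription machinery and MDM2. The series is about TRAF6, a ubiquitin ligase of immune receptor pathways, as an activator of p53-driven transcription, and a lysine-to-arginine change removes a site to which ubiquitin can be attached.

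The arrays had similar median signals over all probes, 115 on vector, 117 on p53 WT and 116 on K24R. Most probes were not detected, so these medians are a background level and do not compare the signal of expressed genes. The typical bead SE was 3.94% to 3.99% of a signal. Detected probes numbered 13674, 12716 and 14233. The p53 WT array thus had the fewest, and 1614 genes were above background on K24R alone against 501 on p53 WT alone. The cutoff was not the same on these 2 arrays. The lowest log2 signal called above background was 5.51 on p53 WT and 5.25 on K24R. RBM7, for example, read 134.1 on p53 WT and 133.9 on K24R and was above background on K24R alone. How far the cutoff shaped these counts was not tested. The amount of p53 on each array and the effect of the mutation cannot be told apart. As a check of the cell type, 4 of the 7 chosen markers of a lung cancer line were detected on vector and on p53 WT and 5 on K24R, among them KRT8, KRT18, VIM and CDH2. EPCAM and KRT19 were not detected on any of the 3 arrays. No marker of endothelium or fibroblasts was detected. Among markers of blood cells CD79A, CD68 and AIF1 were, at the same counts on each array (1 of 7 lymphocyte and 2 of 6 macrophage markers).

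The log2 signals of the 2 arrays correlated at 0.981 across genes, which share each array and are not replicates. The median log2 difference, K24R minus WT, was 0.02 and the interquartile range ran from -0.26 to 0.32. A gene is counted as higher or lower here from 1.5-fold. By that measure 1255 genes (10.5%) were higher on K24R and 1006 (8.39%) were lower. From 2-fold the counts were 148 higher (1.23%) and 215 lower (1.79%). Above background on both arrays were 642 and 626 of the genes past 1.5-fold, and 57 and 74 of those past 2-fold. Of the genes past 1.5-fold, 1080 and 911 differed by more than 2 bead SE. Dim genes made up much of these counts. With the genes split by signal into 4 bins of equal size, in the dimmest bin 20.5% were higher and 15.0% lower, and in the brightest bin 4.0% and 2.67%. The split of calls into higher and lower, 55.5% higher with the main setting, was 71.5% with scaling to equal medians and 78.3% with the authors' matrix, but 49.9% with an offset of 50, 49.3% at a detection p under 0.05 and 48.9% with no detection filter. Of the 80 genes named by rule below and past 1.5-fold, 41 stayed past it in every alternative that gave them a value, and the other 39 did not, 35 of them with the authors' matrix. Against vector, p53 WT had 353 genes at least 2-fold higher (2.94%) and 239 at least 2-fold lower (1.99%), while K24R had 175 (1.46%) and 22 (0.183%). These last comparisons share the vector array. The detection rule bears on them too, since no gene was kept through vector. A gene not above background on p53 WT was kept only if it was above background on K24R, and the reverse. How far this shaped the counts below vector was not tested.

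**Figure D1:**
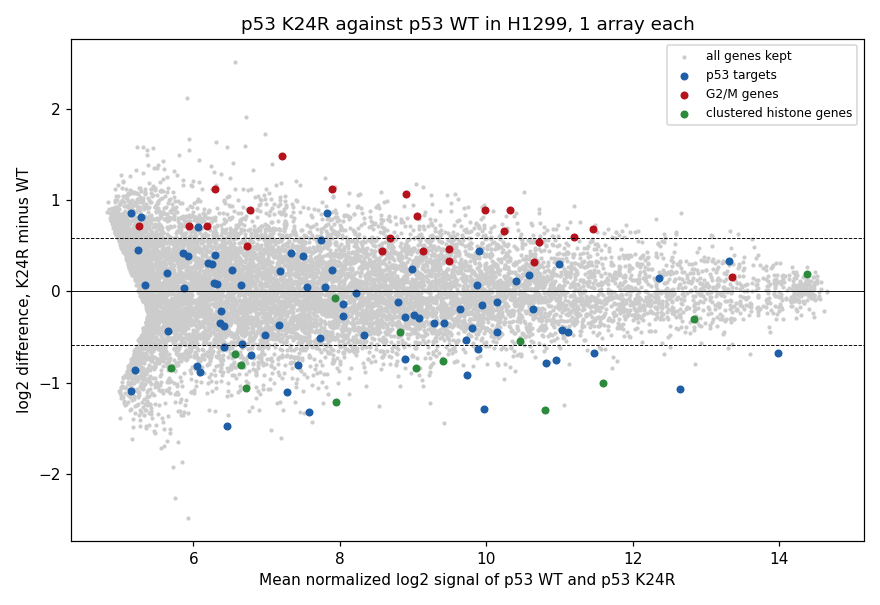
Each point is a gene, with the mean normalized log2 signal of the p53 WT and K24R arrays on the horizontal axis and the log2 difference, K24R minus WT, on the vertical axis (1 array each; dashed lines at 1.5-fold). The 23 G2/M genes all lie above 0, and 13 of 14 histone genes and 46 of 78 p53 targets lie below it.

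Known p53 targets were more often lower than higher on K24R. The 105 targets chosen from textbook knowledge form 6 lists by role, and 78 of them were kept. Of these, 19 (24.4%) were at least 1.5-fold lower on K24R and 4 (5.13%) higher, beside 8.39% and 10.5% of all genes. Among the 72 targets above background on both arrays, 17 were lower and 2 higher, beside 626 and 642 of the 9882 genes above background on both. The median log2 difference of the kept targets was -0.21, against 0.02 for all genes. The lower targets were chiefly those of growth arrest, metabolism and secreted or surface proteins, while the lists of feedback, apoptosis and repair had medians close to 0. Against vector, 24 targets were at least 2-fold higher on p53 WT and 16 on K24R, beside 2.94% and 1.46% of all genes. The share over all genes was thus also smaller on K24R. The count of lower targets was 8 with the authors' matrix and 11 without background correction.

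**Figure D2:**
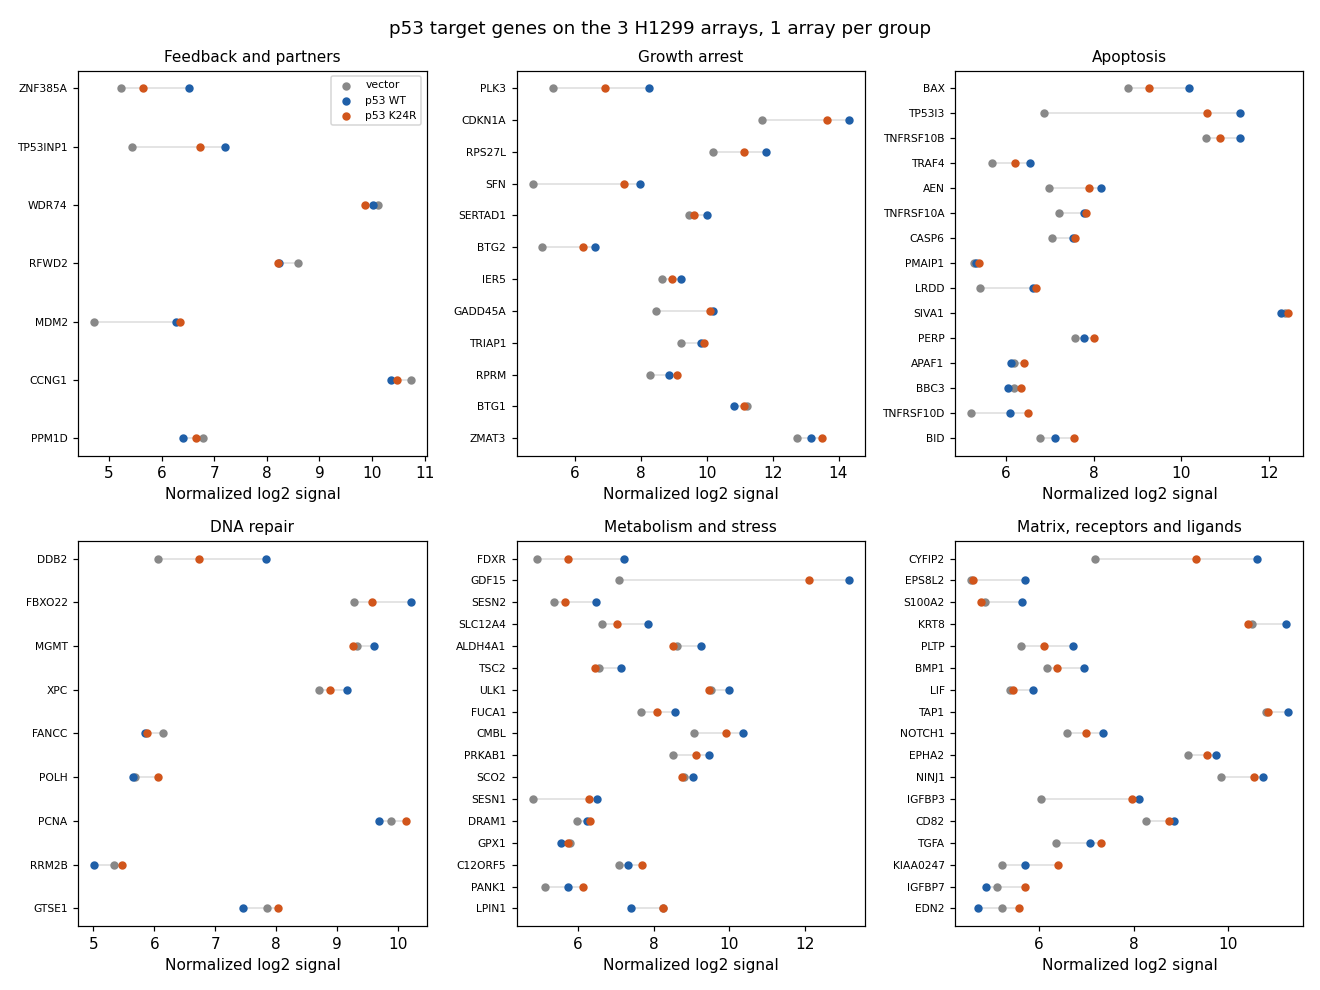
Normalized log2 signal of the kept p53 targets, 1 of them left out, on the vector (grey), p53 WT (blue) and K24R (orange) arrays, 1 array per group, in panels by role and ordered by the difference between K24R and p53 WT. For GDF15, CYFIP2, PLK3 and BAX the orange point lies between vector and p53 WT, while MDM2 and GADD45A have both p53 arrays at about the same level, above vector.

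The genes of growth arrest except BTG1 were above vector on both p53 arrays, and 8 of 12 were lower on K24R than on p53 WT by any amount. Of 12 kept genes 3 (25%) were at least 1.5-fold lower on K24R and 0 higher (median log2 difference -0.34), beside 8.39% and 10.5% of all genes. CDKN1A encodes p21, the inhibitor of cyclin-dependent kinases through which p53 stops the cycle. Its signal was 3369.5 on vector, 21027 ± 588 on p53 WT and 12992 ± 213 on K24R, 1.60-fold lower on K24R than on p53 WT (log2 difference -0.68 ± 0.05 bead SE). A further CDKN1A probe read 122, 638 and 528 in the same order, a difference of -0.34 ± 0.09, and the mean over both probes gave -0.51, under the threshold. Both probes placed K24R below p53 WT and far above vector. The brighter one lay near the top of the scale on p53 WT, where the highest signal of any probe was 27805. PLK3, a stress-responsive kinase, had the largest difference of the list. Its signal was 134 on vector, 385 ± 48 on p53 WT and 217 ± 12.5 on K24R, 2.49-fold lower on K24R than on p53 WT (log2 difference -1.32 ± 0.28 bead SE). RPS27L, a ribosomal protein paralogue, read 1293 on vector, 3751 ± 115 on p53 WT and 2271 ± 85.8 on K24R, 1.60-fold lower on K24R than on p53 WT (log2 difference -0.67 ± 0.07 bead SE). SFN, which encodes the 14-3-3 sigma protein that holds cells in G2, was 1.42-fold lower (log2 difference -0.51 ± 0.13 bead SE), under the threshold. GADD45A, which acts in arrest and repair, hardly differed: its signal was 458 on vector, 1275 on p53 WT and 1156 on K24R (log2 difference -0.11 ± 0.10). SERTAD1, BTG2 and IER5 differed by -0.40, -0.38 and -0.29 in log2, and TRIAP1, RPRM, BTG1 and ZMAT3 by 0.07, 0.25, 0.30 and 0.33. PLK2 was not above background on either p53 array.

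Among feedback regulators of p53, ZNF385A alone differed by more than 1.5-fold. Of 7 kept genes 1 (14.3%) was lower on K24R and 0 were higher (median log2 difference -0.02), beside 8.39% and 10.5% of all genes. MDM2 read 115 on vector, 168 ± 7.04 on p53 WT and 177 ± 5.5 on K24R at its only kept probe, a log2 difference of 0.08 ± 0.17 bead SE. It was above background on both p53 arrays and not on vector, so both p53 forms went with a higher MDM2 signal, 1.92-fold or more above vector on p53 WT and 2.03-fold or more on K24R. The lower gene was ZNF385A, a p53 cofactor that steers it towards arrest genes, with a signal of 131 on vector, 181 ± 4.93 on p53 WT and 144 ± 5 on K24R, 1.85-fold lower on K24R than on p53 WT (log2 difference -0.88 ± 0.17 bead SE), but under the threshold without background correction (-0.37) and with the authors' matrix (-0.25). TP53INP1, a stress protein that helps p53 activate apoptosis genes, differed by -0.48 ± 0.16. PPM1D, the phosphatase that switches off p53 signalling, and the cyclin gene CCNG1 differed by 0.24 ± 0.16 and 0.11 ± 0.08. The ubiquitin ligase gene COP1, listed as RFWD2, and WDR74 differed by -0.02 and -0.15. RCHY1, TP73, TRIM22, JMY, PML and HEXIM1 were not above background on either p53 array.

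Apoptosis targets showed no common direction, and BAX was the member farthest below p53 WT. Of 15 kept genes 2 (13.3%) were lower on K24R and 0 higher (median log2 difference 0.06), beside 8.39% and 10.5% of all genes. BAX encodes the protein that permeabilises the outer mitochondrial membrane. Its signal was 545 on vector, 1267 ± 61.8 on p53 WT and 707 ± 28.4 on K24R, 1.88-fold lower on K24R than on p53 WT (log2 difference -0.91 ± 0.10 bead SE). A further BAX probe, of lower signal, read 139.8, 206 and 159 and gave -0.92 ± 0.20. These probes gave differences of similar size, and on both K24R lay nearer to vector than to p53 WT. The remaining BAX probe was not above background on any array. TP53I3, an oxidoreductase linked to reactive oxygen, read 216 on vector, 2747 ± 80.1 on p53 WT and 1586 ± 34.3 on K24R, 1.68-fold lower on K24R than on p53 WT (log2 difference -0.75 ± 0.05 bead SE). The death receptor gene TNFRSF10B, which encodes DR5, differed by -0.45 ± 0.09, TRAF4 by -0.35 ± 0.23 (0.64 as the mean over its probes) and the exonuclease gene AEN by -0.28 ± 0.13. BBC3, the gene of the BH3-only killer protein PUMA, was near background on every array, with 169 on vector, 156 ± 6.88 on p53 WT and 176 ± 7.71 on K24R. Its log2 difference of 0.31 ± 0.21 was within 2 bead SE, and PMAIP1, which encodes NOXA, was above background on K24R alone, too dim for a fold. Above 0 lay also BID (0.42 ± 0.13), the decoy receptor gene TNFRSF10D (0.40 ± 0.22), APAF1 (0.30 ± 0.29), PERP (0.23 ± 0.14) and SIVA1 (0.15 ± 0.06), none past the threshold. Over the alternatives BID went as low as -0.045. TNFRSF10A, CASP6 and PIDD1, listed as LRDD, differed by 0.04, 0.05 and 0.07. FAS, TNFRSF10C, PHLDA3, TP53AIP1 and BCL2L14 were not above background on either p53 array. The wider mitochondrial apoptosis machinery held 1 lower and 1 higher of 21 (median -0.15). The lower gene was BOK, a BAX relative (-0.59 ± 0.16), and the higher one BIRC2, an inhibitor-of-apoptosis ligase (0.99 ± 0.27). Both missed the threshold without background correction and with the authors' matrix, where BOK was at -0.20 and BIRC2 at 0.34. The antiapoptotic gene MCL1 differed by 0.49 ± 0.08.

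Among repair targets 2 genes (22.2%) were lower on K24R and none was higher, of 9 kept (median log2 difference 0.04). Over all genes 8.39% were lower and 10.5% higher. DDB2, which recognises ultraviolet lesions for nucleotide excision repair, read 163 on vector, 312 ± 10.1 on p53 WT and 202 ± 8.89 on K24R, 2.15-fold lower on K24R than on p53 WT (log2 difference -1.11 ± 0.14 bead SE). FBXO22, a ubiquitin ligase subunit induced by p53, read 731 on vector, 1278 ± 90.9 on p53 WT and 851 ± 40 on K24R, 1.55-fold lower on K24R than on p53 WT (log2 difference -0.63 ± 0.13 bead SE). For both, K24R lay between vector and p53 WT and nearer to vector. With the authors' matrix neither reached the threshold (-0.55 for DDB2 and -0.40 for FBXO22). XPC, the partner of DDB2 in lesion recognition, and MGMT, which removes alkyl groups from guanine, differed by -0.26 ± 0.09 and -0.35 ± 0.07. PCNA, the sliding clamp of replication, was below vector on p53 WT and above it on K24R, at 1048 on vector, 915 ± 39.9 on p53 WT and 1181 ± 34 on K24R (log2 difference 0.44 ± 0.08). GTSE1, which is expressed in G2, and the translesion polymerase gene POLH differed by 0.56 ± 0.08 and 0.42 ± 0.25. Over the alternatives POLH went as low as -0.025. The ribonucleotide reductase gene RRM2B was above background on K24R alone and FANCC differed by 0.04 ± 0.23. REV3L was not above background on either p53 array.

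Targets of metabolism and stress had the lowest median of the p53 lists. Of 17 kept genes 6 (35.3%) were lower on K24R and 1 was higher (median log2 difference -0.44), beside 8.39% and 10.5% of all genes. The lower genes numbered 3 without background correction and 1, GDF15, with the authors' matrix, where the median was -0.22. GDF15, a secreted stress cytokine, lay farther above vector than any other kept gene, by the mean of both p53 arrays. Its signal was 234 on vector, 9508 ± 270.0 on p53 WT and 4365 ± 79.7 on K24R, 2.10-fold lower on K24R than on p53 WT (log2 difference -1.07 ± 0.05 bead SE). In normalized signal it was 68.8-fold above vector on p53 WT and 32.8-fold on K24R. FDXR, the mitochondrial ferredoxin reductase, read 121 on vector, 233 ± 21.8 on p53 WT and 148 ± 7.05 on K24R, 2.78-fold lower on K24R than on p53 WT (log2 difference -1.48 ± 0.30 bead SE), the largest difference among the p53 targets (-0.47 with the authors' matrix). SESN2, a stress sensor that restrains mTORC1, the potassium-chloride transporter gene SLC12A4, the proline pathway gene ALDH4A1 and TSC2, a brake on mTORC1, were 1.77-fold lower, 1.75-fold lower, 1.68-fold lower and 1.63-fold lower. With the authors' matrix these 4 differences were -0.22, -0.38, -0.37 and -0.14, and those of SESN2 and TSC2 were under the threshold with an offset of 50 as well. SESN1, the relative of SESN2, differed by -0.22 ± 0.19 and was above background on both p53 arrays but not on vector. The gene higher on K24R was LPIN1, a phosphatidate phosphatase of lipid synthesis, with 405 on vector, 254 ± 8.45 on p53 WT and 402 ± 10.8 on K24R, 1.81-fold higher on K24R than on p53 WT (log2 difference 0.86 ± 0.09 bead SE). Its level on K24R was that of vector, and p53 WT stood below both. The autophagy kinase gene ULK1, FUCA1, CMBL, the AMPK subunit gene PRKAB1 and SCO2 lay between -0.53 and -0.28. TIGAR, listed as C12ORF5, which slows glycolysis, and PANK1 both differed by 0.38, GPX1 by 0.20 and DRAM1 by 0.09. GLS2, TP53I11, SPATA18 and CPT1C were not above background on either p53 array.

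Of 18 kept targets that encode surface, secreted or structural proteins, 5 (27.8%) were lower on K24R and 3 (16.7%) higher. The median log2 difference of the 18 was -0.28, and of all genes 8.39% were lower and 10.5% higher. Counting only targets above background on both arrays left 3 lower and 1 higher, and with the authors' matrix 2 were lower and 0 higher. CYFIP2, a member of the WAVE actin complex and a p53 target in apoptosis, read 245 on vector, 1702 ± 50.8 on p53 WT and 724 ± 19.6 on K24R, 2.45-fold lower on K24R than on p53 WT (log2 difference -1.29 ± 0.06 bead SE). KRT8, an intermediate filament of simple epithelia, read 1537 on vector, 2523 ± 159 on p53 WT and 1429 ± 47.5 on K24R, 1.72-fold lower on K24R than on p53 WT (log2 difference -0.79 ± 0.11 bead SE). On K24R KRT8 was just below vector, whereas CYFIP2 stayed well above it. PLTP, a phospholipid transfer protein, was 1.52-fold lower, and EPS8L2 and S100A2, above background on p53 WT alone, were at least 1.36-fold lower and at least 1.30-fold lower, bounds under the threshold. With the authors' matrix PLTP, EPS8L2 and S100A2 were at -0.15, -0.08 and -0.20. SUSD6, listed as KIAA0247, was 1.62-fold higher, and IGFBP7 and EDN2, above background on K24R alone, were at least 1.13-fold higher and at least 1.04-fold higher, also under it. With the authors' matrix SUSD6, IGFBP7 and EDN2 were at 0.40, 0.33 and 0.35. IGFBP3, which binds insulin-like growth factors, was 162 on vector, 361 on p53 WT and 346 on K24R, with a log2 difference of -0.14 ± 0.12. The adhesion gene NINJ1 differed by -0.19 ± 0.08. The other kept genes, BMP1, LIF, TAP1, NOTCH1, EPHA2, CD82 and TGFA, lay between -0.58 and 0.22. THBS1, SERPINB5, KITLG, CSF1, CX3CL1, PTP4A1, RAP2B and ABCA12 were not above background on either p53 array.

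Genes of G2 and mitosis, which p53 lowers through p21, were higher on K24R than on p53 WT. Of 23 kept genes 14 (60.9%) were at least 1.5-fold higher and 0 lower, beside 10.5% and 8.39% of all genes. Of the genes above background on both arrays, 13 were higher. All 23 kept genes lay above 0, 23 of them by more than 2 bead SE (median log2 difference 0.68, range 0.16 to 1.48). NEK2, a kinase that separates centrosomes, read 379 on vector, 178 ± 6.38 on p53 WT and 344 ± 15.2 on K24R, 2.79-fold higher on K24R than on p53 WT (log2 difference 1.48 ± 0.14 bead SE). CCNB1, the cyclin that drives entry into mitosis, read 829.7 on vector, 413 ± 13.7 on p53 WT and 779 ± 40.8 on K24R, 2.10-fold higher on K24R than on p53 WT (log2 difference 1.07 ± 0.11 bead SE). TOP2A, the topoisomerase that untangles sister chromatids, read 685 on vector, 247 ± 8.54 on p53 WT and 447 ± 14.8 on K24R, 2.17-fold higher on K24R than on p53 WT (log2 difference 1.12 ± 0.10 bead SE). In each of the 3, p53 WT was lowest, vector highest and K24R between them. HMMR, a spindle protein, was 2.17-fold higher, TPX2, an activator of Aurora A, 1.86-fold higher, CCNA2, the S and G2 cyclin, 1.85-fold higher, ECT2, a regulator of cytokinesis, 1.85-fold higher and the checkpoint kinase gene BUB1 1.78-fold higher. TPX2 was above vector on K24R, with a signal of 1271 on vector, 1043 on p53 WT and 1788 on K24R. The smallest differences were those of CDC20 (0.16 ± 0.05), CDC25B (0.32 ± 0.06) and BIRC5 (0.33 ± 0.10). Against vector, 9 of the genes were at least 2-fold lower on p53 WT and 1 on K24R, beside 1.99% and 0.183% of all genes. The count of genes higher on K24R was 8 without background correction. The cell cycle genes named here beyond the 4 with the largest difference in each list were picked after their values were seen, as were the remaining histone genes below. CENPE, CENPF and MKI67 were not above background on either p53 array.

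Genes of G1/S and replication had a median on the same side of 0 and nearer to it. Of 25 kept genes 4 (16%) were higher on K24R and 0 lower (median log2 difference 0.26), beside 10.5% and 8.39% of all genes. The higher genes numbered 1 without background correction and 3 with the authors' matrix. POLA1, the catalytic subunit of the primase-polymerase complex, RRM2 and RRM1, the subunits of ribonucleotide reductase, and the helicase gene MCM4 were 1.82-fold higher, 1.70-fold higher, 1.62-fold higher and 1.51-fold higher. CCNE1, the cyclin of S phase entry, lay below 0: its signal was 348 on vector, 519.8 ± 14.6 on p53 WT and 413 ± 13.8 on K24R (log2 difference -0.44 ± 0.08). E2F1, CDT1 and MYBL2 also lay below 0, at -0.26 ± 0.27, -0.19 ± 0.09 and -0.33 ± 0.38. CCNE2, CDC6 and GINS1 were not above background on either p53 array.

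**Figure D3:**
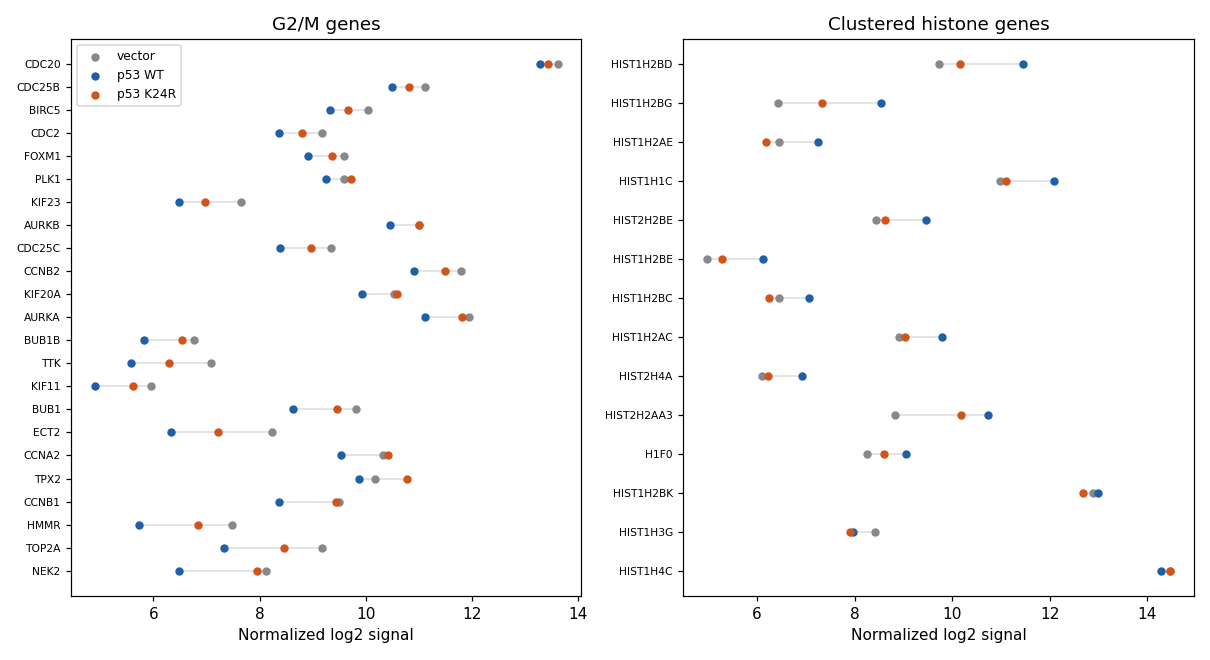
Normalized log2 signal of the kept G2/M genes (left) and clustered histone genes (right) on vector (grey), p53 WT (blue) and K24R (orange), 1 array per group, ordered by the difference between K24R and p53 WT. For the G2/M genes p53 WT is the lowest of the 3 arrays; for HIST1H2BD and most other histone genes p53 WT is the highest.

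Histone genes of the chromosomal clusters were lower on K24R. Of 14 kept genes 9 (64.3%) were at least 1.5-fold lower and 0 higher (median log2 difference -0.79, range -1.30 to 0.19), beside 8.39% and 10.5% of all genes. The lower genes numbered 5 without background correction and 6 with the authors' matrix. Most histone messages of these clusters lack a poly(A) tail and are made in S phase, and some members also give tailed transcripts outside it. HIST1H2BD, an H2B gene, read 955 on vector, 2979.9 ± 147 on p53 WT and 1205 ± 31 on K24R, 2.47-fold lower on K24R than on p53 WT (log2 difference -1.30 ± 0.08 bead SE). HIST1H1C, a linker histone gene, read 2116 on vector, 4616 ± 168 on p53 WT and 2225 ± 76.3 on K24R, 2.0-fold lower on K24R than on p53 WT (log2 difference -1.0 ± 0.07 bead SE). HIST1H2BG read 184 on vector, 458 ± 13.7 on p53 WT and 259 ± 8.68 on K24R, 2.31-fold lower on K24R than on p53 WT (log2 difference -1.21 ± 0.09 bead SE). In these 3 genes p53 WT was highest and vector lowest, and for HIST1H1C K24R was close to vector. HIST1H2AE, HIST2H2BE, HIST1H2BE, HIST1H2BC, HIST1H2AC and HIST2H4A were between 1.61-fold and 2.09-fold lower. The members nearest to or above 0 were HIST1H4C (0.19 ± 0.07) and HIST1H3G (-0.07 ± 0.10). Histone genes of a cluster are closely similar in sequence, and a probe may read several of them, so the members are not independent. HIST1H1E, HIST1H3B and HIST1H4H were not above background on either p53 array.

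The TRAF6 pathway was looked at because the series concerns that ligase. TRAF6 was close to background: its only kept probe read 135 on vector, 122 ± 2.98 on p53 WT and 133 ± 7.04 on K24R. That probe was above background on vector and K24R and not on p53 WT, too dim for a fold. The list held 2 lower and 1 higher of 14 (median log2 difference 0.17). For this list and those that follow, the shares over all genes were 8.39% lower and 10.5% higher. UBE2N, the conjugating enzyme that works with TRAF6, read 242 on vector, 179 ± 8.1 on p53 WT and 286 ± 14.9 on K24R, 2.12-fold higher on K24R than on p53 WT (log2 difference 1.08 ± 0.18 bead SE). SQSTM1, the autophagy adaptor p62 that binds TRAF6, read 10855 on vector, 16174 ± 435 on p53 WT and 9716 ± 256 on K24R, 1.61-fold lower on K24R than on p53 WT (log2 difference -0.69 ± 0.05 bead SE). The ligase gene HECTD3 was 1.57-fold lower (-0.42 with the authors' matrix) and TAB1, listed as MAP3K7IP1, differed by -0.43 ± 0.15. NF-kB targets held 1 lower and 0 higher of 15 (median log2 difference -0.22), the lower gene being LTB (at least 1.61-fold lower), which was above background on p53 WT alone and at -0.17 with the authors' matrix. CXCL1, above background on p53 WT alone, was at least 1.37-fold lower, and NFKBIE and NFKB2 differed by -0.38 ± 0.10 and -0.36 ± 0.15.

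Interferon response genes held 3 lower and 2 higher of 16 (median log2 difference -0.17). ISG15, a ubiquitin-like modifier that p53 can also induce, read 2298 on vector, 9926 ± 301 on p53 WT and 5539 ± 204 on K24R, 1.73-fold lower on K24R than on p53 WT (log2 difference -0.79 ± 0.07 bead SE). OASL and the exonuclease gene ISG20 were 2.25-fold lower and 1.85-fold lower, while the 2 counted as higher, IFIT3, too dim for a fold, and the RNA sensor gene IFIH1 (at least 1.40-fold higher), were above background on K24R alone. Among genes above background on both arrays 0 were higher. Immediate early and MAPK feedback genes held 4 lower and 1 higher of 20 (median log2 difference 0.04). ATF3, a stress transcription factor, read 411 on vector, 1189 ± 31.9 on p53 WT and 710.3 ± 27.6 on K24R, 1.75-fold lower on K24R than on p53 WT (log2 difference -0.80 ± 0.08 bead SE), and the AP-1 genes JUNB and JUND were at least 2.14-fold lower and 1.61-fold lower. DUSP1, which dephosphorylates MAP kinases, was 1.56-fold lower, and IER2 was 1.52-fold higher. The unfolded protein and ATF4 response held 3 lower and 0 higher of 20 (median log2 difference -0.09), and the lower ones were SESN2, given above, DDIT3, which encodes CHOP (1.65-fold lower), and HERPUD1 (1.55-fold lower). TRIB3 differed by -0.50 ± 0.08. Heat shock genes held 0 lower and 2 higher of 13 (median log2 difference 0.21). HSPH1 and HSP90AA1, both chaperones, were 1.69-fold higher and 1.58-fold higher, and the mitochondrial chaperonin genes HSPD1 and HSPE1 differed by 0.47 ± 0.05 and 0.45 ± 0.13. The HSP90AA1 signal was 12209 on vector, 8476 on p53 WT and 13072 on K24R, lowest on p53 WT. With the authors' matrix OASL, IFIH1, ATF3, JUNB, DDIT3 and HERPUD1 were under the threshold, at -0.30, 0.33, -0.55, -0.34, -0.47 and -0.52.

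The remaining lists had medians close to that of all genes. Cholesterol genes held 1 lower and 0 higher of 18 (median log2 difference -0.15), the lower one being SREBF2 (at least 1.33-fold lower), which encodes the factor that drives such genes and was above background on p53 WT alone. That bound is under the threshold, and among genes above background on both arrays 0 were lower. MVK and IDI1, enzymes of the mevalonate pathway, differed by -0.55 ± 0.23 and -0.45 ± 0.13, and INSIG1, which holds back sterol synthesis, by 0.54 ± 0.09. Hypoxia and glycolysis genes held 1 lower and 0 higher of 18 (median log2 difference -0.08). The lower one was NDRG1 (1.66-fold lower, and at -0.33 with the authors' matrix). The glucose transporter gene SLC2A3 and the glycolytic genes ALDOA and PGK1 differed by 0.46 ± 0.06, -0.46 ± 0.05 and -0.44 ± 0.07. Ribosomal protein genes held 0 lower and 0 higher of 23 (median log2 difference 0.05) and epithelial or mesenchymal markers 0 lower and 0 higher of 9 (median log2 difference 0.09). RPL7, RPL13 and RPL11 differed by 0.54 ± 0.12, -0.32 ± 0.13 and 0.25 ± 0.06. TJP1, CDH2 and KRT18 differed by 0.46 ± 0.13, 0.41 ± 0.07 and -0.34 ± 0.12, and SPARC, above background on K24R alone, was too dim for a fold.

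**Figure D4:**
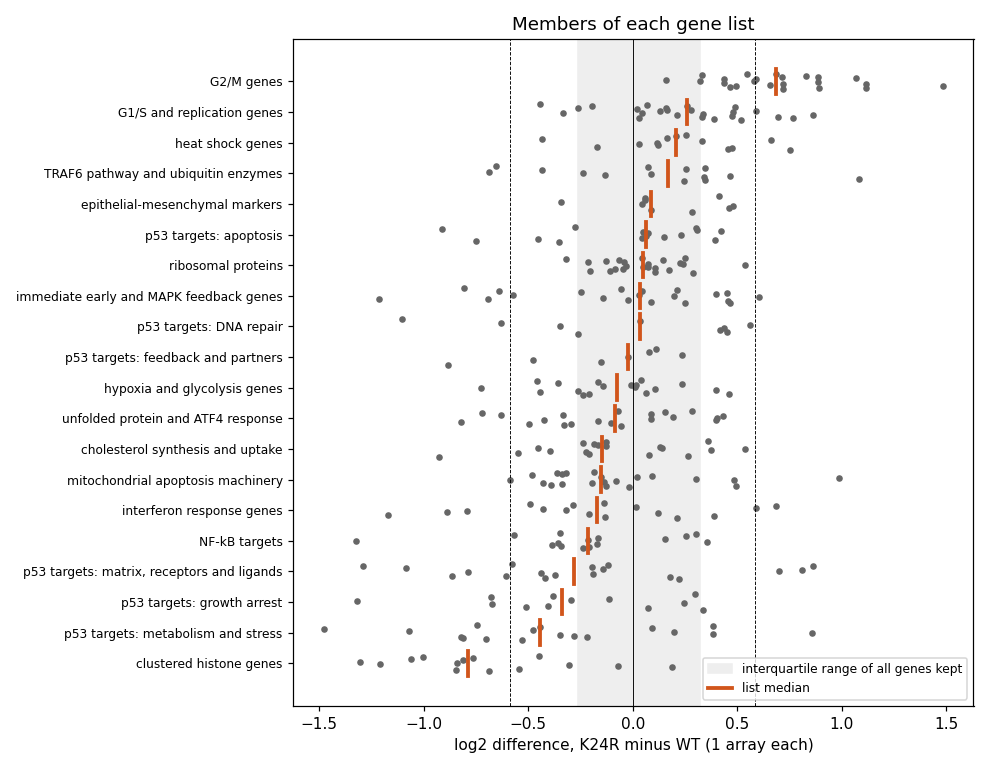
Log2 difference, K24R minus WT (1 array each), of every kept member of the 20 gene lists, with the list median as an orange bar, the interquartile range of all genes as a grey band and dashed lines at 1.5-fold. G2/M genes (median 0.68) and clustered histone genes (median -0.79) are the lists at the 2 ends.

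The 15 genes farthest above and the 15 farthest below p53 WT on K24R were named by size, among genes whose deposited signal also differed by 1.5-fold. In the first set were several genes not above background on vector. UNC5A, a netrin receptor, read 89.6 on vector, 134 ± 6.7 on p53 WT and 322 ± 11.2 on K24R and was at least 4.96-fold higher. PLA2G10, a secreted phospholipase, read 106 on vector, 146 ± 5.37 on p53 WT and 300.1 ± 14.5 on K24R, 3.76-fold higher on K24R than on p53 WT (log2 difference 1.91 ± 0.18 bead SE). H19, an imprinted noncoding RNA, read 100.2 on vector, 159.7 ± 5.84 on p53 WT and 325 ± 9.12 on K24R, 3.28-fold higher on K24R than on p53 WT (log2 difference 1.72 ± 0.14 bead SE). In all 3, K24R was highest and vector was not above background, and p53 WT stood between them, not above background for UNC5A. KLHL30 and the calmodulin kinase gene CAMK2B had the same order and were 3.01-fold higher and 2.98-fold higher. CAMK2B, with 4 kept probes, was at a log2 difference of 0.81 as the mean over them and 0.38 with the authors' matrix. PLCH2, RASD1, LHX3 and KCNT1, above background on K24R alone, were at least 2.39-fold higher, at least 3.06-fold higher, at least 2.28-fold higher and at least 1.42-fold higher. With the authors' matrix LHX3 was under the threshold, at 0.20. The other genes of this set were lower on p53 WT than on vector. DTL, a substrate receptor of the CUL4 ubiquitin ligase, read 215 on vector, 122 ± 3.61 on p53 WT and 221 ± 15.3 on K24R and was at least 2.74-fold higher. Besides NEK2 they included the mitotic genes SKA1 and CKAP2L, 2.64-fold higher and at least 2.45-fold higher, TMEM194, 2.58-fold higher, and the receptor gene GPR1, 2.63-fold higher. For DTL and SKA1, K24R was at about the vector level.

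Among the 15 genes farthest below p53 WT were the p53 targets FDXR, PLK3 and CYFIP2 and the histone gene HIST1H2BD, described above. HIST1H3D, an H3 gene, read 145 on vector, 339.7 ± 13.8 on p53 WT and 179 ± 7.61 on K24R, 3.04-fold lower on K24R than on p53 WT (log2 difference -1.60 ± 0.15 bead SE). FBXO2, a ubiquitin ligase subunit that binds glycoproteins, and DACT3, a Wnt antagonist, were 2.46-fold lower and 2.48-fold lower. For these 3 genes p53 WT was highest and vector lowest. CLIP3, a microtubule-linked protein, read 639 on vector, 1237 ± 35 on p53 WT and 507 ± 15.3 on K24R, 2.72-fold lower on K24R than on p53 WT (log2 difference -1.44 ± 0.07 bead SE). MYL5, DHDH and the transcriptional corepressor TLE6 were 2.69-fold lower, 2.86-fold lower and 2.51-fold lower. In these 4 genes K24R was the lowest of the 3 arrays. EPR1 was at least 2.88-fold lower, with 244 on vector, 197 ± 6.31 on p53 WT and 122 ± 4.17 on K24R, where it was not above background. It overlaps BIRC5 on the opposite strand, and BIRC5 differed the other way (0.33 ± 0.10). MAGEB3, SLC30A4 and OR4S1 were above background on p53 WT alone, with bead SE of 1.11, 0.56 and 0.56 on the log2 difference. They were at least 3.09-fold, at least 1.64-fold and at least 1.35-fold lower. The MAGEB3 signal on p53 WT was 204 ± 81.5. With the authors' matrix FBXO2, DACT3, SLC30A4 and OR4S1 were under the threshold, at -0.42, -0.56, -0.24 and -0.54.

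**Figure D5:**
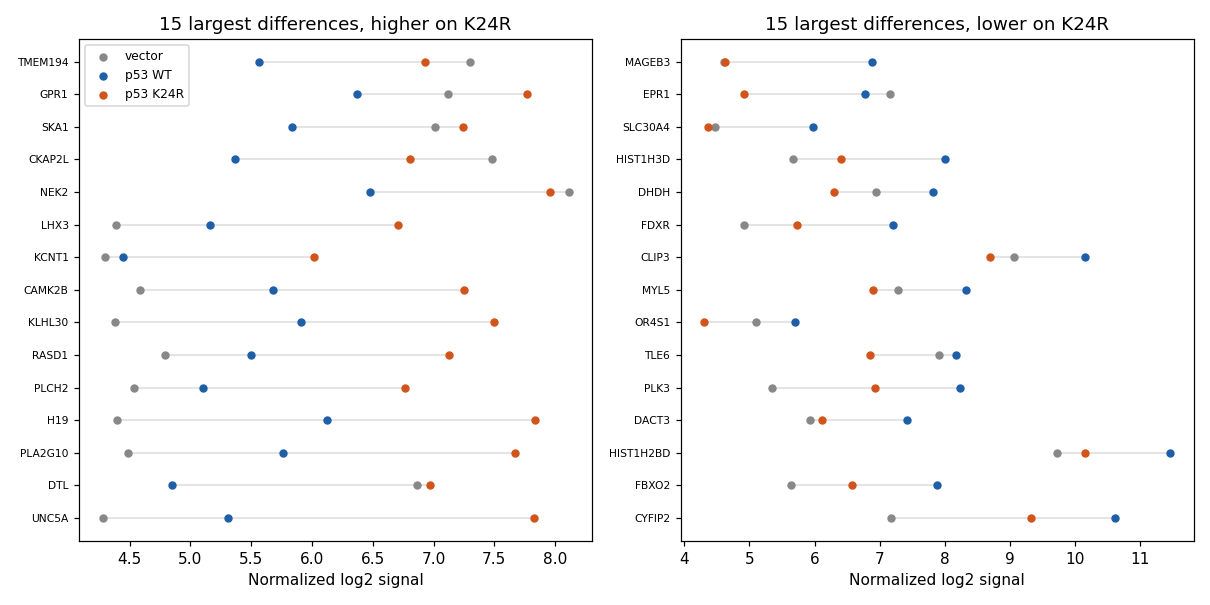
Normalized log2 signal of the 15 genes farthest above p53 WT on K24R (left) and the 15 farthest below it (right) on vector (grey), p53 WT (blue) and K24R (orange), 1 array per group. On the left, UNC5A, PLA2G10, H19 and KLHL30 have K24R highest and vector lowest, while DTL and NEK2 have p53 WT lowest; on the right, p53 WT is the highest point in all genes but EPR1.

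Genes that differed from vector were also taken from the arrays, by the mean of p53 WT and K24R against vector. This choice treats both p53 arrays alike, but it favours whichever of them lies farther from vector by error, and the error of each array between cultures is not known. A gene can also pass through 1 p53 array alone, as MAGEB3 did through p53 WT and EPR1 through K24R. Membership is thus not a shown response to p53. Of 162 genes at least 2-fold above vector, 51 (31.5%) were lower on K24R and 24 (14.8%) higher, beside 8.39% and 10.5% of all genes. The median log2 difference of the 162 genes was -0.24, with an interquartile range of -0.65 to 0.24. They included 19 of the listed p53 targets, and 85 were not above background on vector. Of 66 genes at least 2-fold below vector, 35 (53%) were higher on K24R and 4 (6.06%) lower, beside 10.5% and 8.39% of all genes. The median of the 66 was 0.61, with an interquartile range of 0.32 to 0.92. Of the 66 genes, 60 lay above 0. The detection rule bears on this set as well. A gene not above background on p53 WT entered only through K24R, where its signal was the higher. Many of the 66 genes, and many of the 35 higher ones, entered in this way. ATAD2, KNTC1, PCM1, CKAP2L, PPAT and DEPDC1 are examples. How far this raised the count and the median was not tested. As chosen, the 2 sets lay on opposite sides of the median of all genes, 0.02. K24R was nearer to vector in both by the median, for the set below vector with the limit just given. The set above vector was spread in both directions. With scaling to equal medians the median of the set above vector was -0.04 and with the authors' matrix -0.09.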

How the data were processed

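RNA of transfected H1299 cells was extracted with Trizol and biotin-labelled for Illumina bead arrays, per the labels' protocols, and 3 human arrays, 1 per group, were used. Per the file headers, the deposited table gives for each probe the mean bead signal as an intensity with its bead standard error, the count of beads, and a detection p-value against the negative controls. The values carry no visible background subtraction or normalization, and the scan software is not given in the sources used here. The authors' deposited matrix held, on checking, the mean intensity over the probes of a gene times 1 constant per array (all values within 1%), and it served as an alternative. No column lacked a sample.

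The deposited intensities of the 3 arrays were processed with neqc in limma 3.58.1 (R 4.3.3): normexp background correction from the detection p-values, an offset of 16, quantile normalization and log2. The log2 bead SE was carried through from the deposited standard errors. Offsets and quantile normalization draw dim probes together and give the arrays 1 distribution. The calculation was tested on simulated data. Probes with a detection p under 0.01 on p53 WT or K24R were kept, and 25 probes whose names a spreadsheet had turned into dates were left out. A gene is its probe of highest mean signal, under the name in the table, and 31 list genes were matched under an older name. Genes were also chosen by the mean log2 of p53 WT and K24R, at least 2-fold above or below vector. No test was possible with 1 array per group.

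The genes named are the 15 largest differences in each direction with a deposited signal ratio of at least 1.5, without LOC and Hs. identifiers, every kept p53 target, the 4 members of each other list with the largest difference, and MDM2, CDKN1A, BBC3, BAX, GDF15 and TRAF6. A few genes that the rule names are not reported here. The few names outside it were picked after their values were seen. Members and lists were chosen with earlier results of these data known. The alternatives changed the background correction, offset, scaling, arrays normalized together, detection filter, probe rule and source of values.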

Additional observations from a re-analysis of the deposited data

How the results depend on the processing

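No paired analysis was possible because each group has 1 H1299 array, and for the same reason no array could be left out; the precision is limited by that number, and bead errors stand for the reading of an array only. The counts of genes higher and lower on K24R, 1255 and 1006, changed by more than 1.5 times in several alternatives. They were 210 and 160 without background correction, 431 and 433 with an offset of 50, 292 and 81 with the authors' matrix, and 642 and 627 with detection on both arrays. They were 1768 and 706 with scaling to equal medians. Median scaling shared 1242 higher and 695 lower genes with the main setting. The count of p53 targets lower on K24R, 19, was 11 without background correction and 8 with the authors' matrix. The median over p53 targets stayed below 0 in all 9 alternatives (-0.24 to -0.05), that of G2/M genes above 0 (0.48 to 0.72) and that of clustered histone genes below it (-0.83 to -0.36). List medians near 0 changed sign. That of feedback genes became 0.083 with median scaling, 0.078 with the authors' matrix and 0.026 at a detection p under 0.05. That of hypoxia genes became 0.0063 with the authors' matrix. That of repair genes became -0.11 with detection on both arrays and -0.025 with the mean over probes. The cause of these changes was not tested. The median of genes above vector by both p53 arrays ran from -0.32 to -0.04 over 8 alternatives, and that of genes below vector from 0.34 to 0.66 over the 6 that gave one. Of 159 genes named by rule, the 80 past 1.5-fold kept 1 sign in every alternative that gave them a value, but only 41 stayed past 1.5-fold in all of them. The call was lost by 35 with the authors' matrix, 26 without background correction, 12 with an offset of 50, 6 with median scaling, 2 with the mean over probes (CDKN1A and HSP90AA1) and 1 (EPS8L2) with each looser detection filter.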

Other observations

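Apart from the lists, some of the genes farthest above vector by the mean of both p53 arrays were named after their values had been seen. Not every gene of that rank is given. They differed among themselves in how K24R compared with p53 WT. FGFR3, a fibroblast growth factor receptor, read 136 on vector, 553 ± 21.1 on p53 WT and 871 ± 19.1 on K24R, 1.68-fold higher on K24R than on p53 WT (log2 difference 0.75 ± 0.08 bead SE). SUSD2, a surface protein, read 99.9 on vector, 302 ± 12.4 on p53 WT and 504 ± 16.9 on K24R, 1.89-fold higher on K24R than on p53 WT (log2 difference 0.92 ± 0.11 bead SE). For the galectin-7 genes LGALS7 and LGALS7B, which are near-identical copies, the log2 differences were 0.18 ± 0.13 and 0.37 ± 0.10. LCN15 and DPYSL4 differed by -0.13 ± 0.16 and -0.36 ± 0.08. CRYAB, a small heat shock protein, read 108 on vector, 474 ± 21.5 on p53 WT and 297 ± 14.3 on K24R, 1.93-fold lower on K24R than on p53 WT (log2 difference -0.95 ± 0.13 bead SE), and RRAD, a small GTPase induced by p53, read 174 on vector, 876 ± 28.7 on p53 WT and 492 ± 21.2 on K24R, 1.97-fold lower on K24R than on p53 WT (log2 difference -0.98 ± 0.09 bead SE). HES6, a transcription factor of the Hairy family, and the cathepsin gene CTSH differed by -0.38 ± 0.06 and 0.18 ± 0.10. D4S234E and SLC6A10P, farther above vector than HES6 and CTSH, differed by 0.55 ± 0.17 and 0.88 ± 0.12. All these genes were higher on both p53 arrays than on vector, and K24R was above p53 WT for some and below it for others.

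Among the genes farthest below vector, also named after their values had been seen, the following are examples. SLC38A2, an amino acid transporter, read 1406 on vector, 423 ± 15.1 on p53 WT and 734 ± 20.9 on K24R, 1.91-fold higher on K24R than on p53 WT (log2 difference 0.93 ± 0.08 bead SE). ATAD2, a bromodomain ATPase, was not above background on p53 WT and was at least 1.39-fold higher on K24R. The kinetochore gene KNTC1 and the centrosome gene PCM1 were likewise above background on K24R alone, at least 1.33-fold higher and at least 1.72-fold higher. PSIP1, a chromatin protein, had nearly the same signal on both p53 arrays, 248 on vector, 153 on p53 WT and 156 on K24R (log2 difference -0.03 ± 0.17). For EPR1, also in this set, K24R was the lowest of the arrays.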
